A study of Mus musculus with 6 samples.

Results

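The leukaemia cells of mice fasted for 2 days were compared with those of mice fasted for 1 day in a mouse model of B-cell acute lymphoblastic leukaemia. The comparison takes the 4 libraries titled for the 1-day and 2-day fasts, of 6 libraries in all, and every gene that both gene tables of the study list, 37732 genes. C57BL/6 mice had received lineage-negative fetal liver cells made to express N-Myc together with a GFP reporter, and the fast began when about 60% of blood cells were GFP-positive. Cells positive for GFP and for B220, the B-lineage form of CD45, were then sorted from bone marrow, and their RNA was sequenced as 51-base single-end reads. The 1-day group was fasted for 1 day, the 2-day group for 2 days, and the fed control group, whose values are given for orientation, was fed normally; all 3 groups carry the N-Myc and GFP construct. The sources used here do not give the age of the mice, how many mice went into a library, or whether the groups came from separately arising leukaemias, so the length of the fast and differences between leukaemias cannot be told apart.

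Total gene reads were 28805008 and 45862844 in runs 1 and 2 of the 1-day group and 36627712 and 19368326 in those of the 2-day group. The libraries titled replicates 1 and 2 differed by little more than sampling noise: on unique gene reads the median squared difference between them was 1.10 to 1.11 times the sampling variance within a group and 10.1 to 12.2 times between the groups. On total gene reads, which all folds below use, it was 1.32 to 1.42 times within and 12.2 to 14 times between, and 3.99% to 4.78% of genes differed between runs by over 3 SD of the sampling error. The run 1 and run 2 tables also list different gene sets, and genes such as Ciita and Myo3a differ between them in every group. As the series describes 3 samples sequenced in duplicate, the libraries were counted as 2 runs of 1 sample, each group has n = 1, and no difference below has a replicate check. Levels are counts scaled to library size (CPM), adjusted so that most genes have a ratio near 1. Where 4 values are given they are run 1 and run 2 of the 1-day sample, then run 1 and run 2 of the 2-day sample. A log2 fold is that of the 2-day over the 1-day level, with 0.1 CPM added to both, and the values in brackets after it are the folds of run 1 and of run 2 alone. A gene is called higher or lower where its mean and each run differ by at least 2-fold in the same direction, and a member of a gene list where they differ by at least 1.5-fold. Where both groups held 100 reads or more (10665 genes), the folds of the 2 runs differed by a median of 0.06 on the log2 scale.

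Markers of the labelled cell type were abundant in both groups. The B-cell receptor components Cd79a and Cd79b stood at 892 and 522 CPM at 1 day and at 813 and 562 CPM at 2 days. Mycn, the oncogene of the construct, was at 2103 and 2139.6 CPM at 1 day and 2282 and 2294 CPM at 2 days, and Ptprc, the CD45 gene, at 197 and 199 CPM at 1 day and 188 and 186 CPM at 2 days. Of 9 markers of T and NK cells, 7 were under 1 CPM in both groups, among them the T-cell receptor subunit genes Cd3e, Cd3d and Cd3g. Markers of other lineages were found at higher levels. The 8 neutrophil markers summed to 589 and 617 then 781 and 798 CPM. The 8 erythroid markers summed to 550 and 563 then 988 and 984 CPM.

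B-cell precursors rearrange their immunoglobulin genes with the RAG recombinase, and terminal transferase adds nucleotides at the joints. The rearranged heavy chain is first tested on the surface together with a surrogate light chain, and these genes are shut off as a cell becomes an immature and then a mature B cell. MHC class II genes, by contrast, are expressed in B cells of the later stages and present peptides to T cells. Immediate early genes are transcribed within minutes of a stimulus, without new protein synthesis, and many of them also respond to the handling of cells.

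More genes were lower than higher after the longer fast, and more of the lower ones differed by large folds. Of 13923 genes that passed the filter on low counts, 276 were higher (1.98%) and 638 were lower (4.58%). Differences over 8-fold were seen in 127 of the lower and in 8 of the higher genes, and 29 of the lower genes had 0 reads in both 2-day libraries, whereas 0 of the higher genes had 0 reads in both 1-day libraries. The 2-day libraries together held fewer gene reads, so a count of 0 is reached more easily in them. The median log2 fold of all genes was 0.00 and their interquartile range 0.416. The genes nearest the limit were sought among those with at least 5 CPM in the higher group. On the higher side Lrrc16a lay just inside with a smallest log2 fold of 1.01 and Cdc14b just outside at 0.996. On the lower side Neil1 lay inside at −1.0003 and Slc14a1 outside at −0.994. With at least 5 CPM in the higher group, 112 genes were higher and 263 lower. The count of higher genes rested on both runs having to pass: it was 488 without 1-day run 1, 441 without 1-day run 2 and 443 without 2-day run 1.

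**Figure D1:**
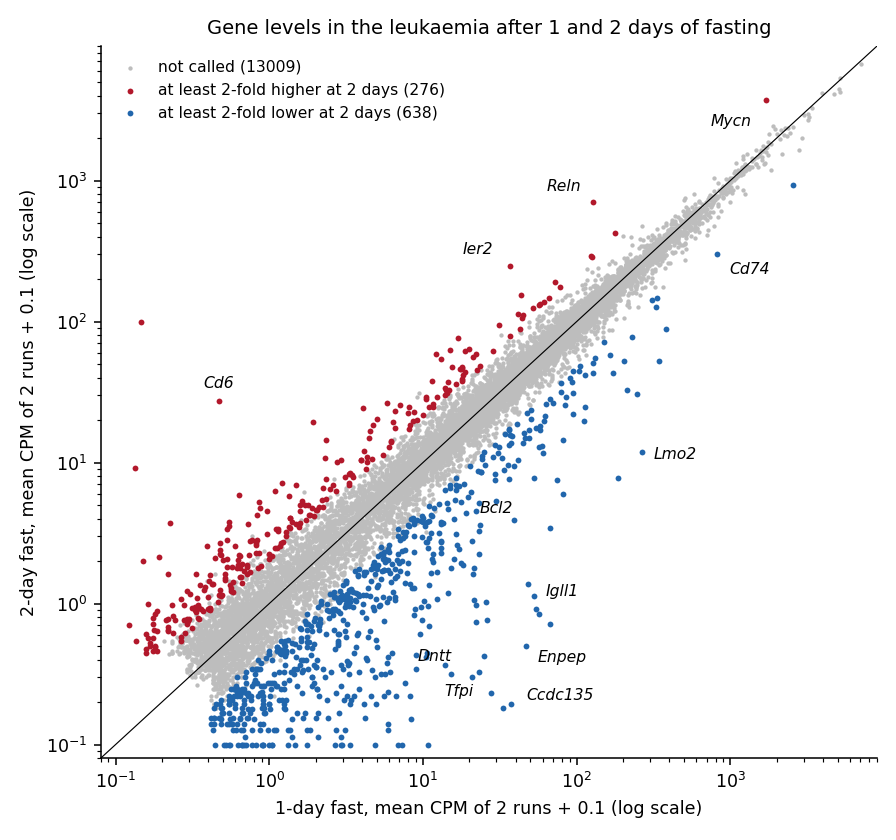
Mean level of each of 13923 genes in the 1-day sample (x axis, CPM plus 0.1, log scale) and in the 2-day sample (y axis, same scale), with the line of equal levels. Red points are the 276 genes called higher and blue points the 638 called lower at 2 days; the blue points along the lower edge are genes with few or no reads in the 2-day sample, and Mycn lies near the line.

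Among named genes with at least 5 CPM, the lowest log2 folds belonged to transcripts of modest level that had a handful of reads at 2 days. Ccdc135, a gene for a protein of motile cilia, was at 36.3 and 38.1 then 0.0816 and 0.106 CPM, 2709 reads at 1 day and 5 at 2 days, a log2 fold of −7.59 [−7.65 and −7.54]. Tmem132e, a gene for a transmembrane protein, was at 32.7 and 33.5 then 0.109 and 0.0529 CPM (−7.52 [−7.30 and −7.78]). Tfpi, which encodes an inhibitor of the tissue factor pathway of coagulation, was at 27.8 and 27.5 then 0.109 and 0.159 CPM (−6.89 [−7.06 and −6.74]). The 2-day libraries held 5 to 7 reads a gene between them. The fed control libraries were at 36.6 and 39.1 CPM for Ccdc135, 53.4 and 55 CPM for Tmem132e and 15 and 14.7 CPM for Tfpi.

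Rab17, a small GTPase gene of membrane traffic, was at 10.6 and 10.6 CPM at 1 day and had 0 reads at 2 days against 769, at least 197-fold lower when 3 reads are set as the floor over the group. It also had 0 reads in both fed control libraries, so that its reads were found in the 1-day sample alone. For Fcrl6, of the Fc receptor-like family, 510 reads at 1 day stood against 0, at least 131-fold lower. For Wscd1 it was 498 against 0, at least 127-fold lower. Dsg2, the gene of a desmosomal cadherin, had 1 read at 2 days and 416 at 1 day, a ratio of 319.5 (95% counting interval 57 to 12649.8), while Armcx4 counted 2 at 2 days and 592 at 1 day, 227 times as much after scaling (62.7 to 1882). These intervals cover counting error only.

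Other lower genes kept more reads at 2 days, 12 to 47. The oligopeptide transporter gene Slc15a2 was at 58.2 and 55.1 then 0.952 and 0.529 CPM (−6.08 [−5.79 and −6.46]), and the adhesion receptor gene Gpr56 at 55.1 and 53.8 then 0.897 and 0.741 CPM (−5.89 [−5.79 and −6.0]). The GDNF coreceptor gene Gfra1 was at 26 and 24 then 0.326 and 0.318 CPM (−5.90 [−5.94 and −5.85]) and Uaca at 23.4 and 23 then 0.19 and 0.265 CPM (−6.15 [−6.34 and −5.99]). The remaining lower genes named by size, Enpep, Dntt and Arpp21, belong to the list of early B-cell progenitor genes described next. With 1 library left out the folds of the rarest transcripts move: without 2-day run 2 the log2 fold of Enpep was −7.20 and that of Armcx4 −6.38.

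Genes of early B-cell progenitors include 3 of the 15 lower genes named by size. Of 20 members of that list 12 were lower and 1 higher, with a median log2 fold of −1.59, where 8.29% of all genes were lower and 5.66% higher at the same 1.5-fold limit and the median of all genes was 0.00. The list was drawn up with earlier results of these data known, and without 1-day run 1 its higher members numbered 2. Dntt, the gene of terminal transferase, was at 19.9 and 21.8 then 0.299 and 0.106 CPM, 1527 reads at 1 day and 13 at 2 days (−6.11 [−5.65 and −6.73]). The fed control libraries stood at 75.4 and 77.7 CPM, so the 1-day sample lay between the other groups. Igll1 and Vpreb1 encode the λ5 and VpreB proteins of the surrogate light chain. Igll1 was at 51.5 and 53.2 then 1.06 and 1.01 CPM (−5.53 [−5.48 and −5.59]) and Vpreb1 at 46.9 and 50 then 1.39 and 1.16 CPM (−5.14 [−4.98 and −5.31]); the fed control was at 58.1 and 60.4 CPM for Igll1 and 58.4 and 57 CPM for Vpreb1. Both recombinase genes were low at 1 day and near 0 at 2 days, Rag1 at 5.61 and 3.4 then 0.136 and 0.106 CPM (309 reads at 1 day and 7 at 2 days) and Rag2 at 2.93 and 3.62 then 0.136 and 0.0529 CPM (243 reads at 1 day and 6 at 2 days).

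Several surface and regulatory genes of the same stage were also far lower at 2 days, while other members of the list were not. Enpep, whose product is the BP-1 antigen of pre-B cells, was at 47.2 and 45.9 then 0.217 and 0.582 CPM (−6.54 [−7.22 and −6.08]). The ETS-family transcription factor gene Erg was at 25.4 and 25.5 then 1.17 and 0.688 CPM (−4.63 [−4.33 and −5.02]), and Lef1, the Wnt-pathway transcription factor gene, at 65.5 and 68.7 then 3.18 and 3.55 CPM (−4.28 [−4.32 and −4.24]). Arpp21 was at 14.7 and 15.6 then 0.272 and 0.159 CPM (−5.60 [−5.32 and −5.92]). At their low 2-day levels the runs differed, most in Enpep. Smaller differences were found for the transcription factor genes Sox4, at 179 against 105 CPM (−0.78 [−0.75 and −0.81]), and Myb, at 259.8 against 155 CPM (−0.75 [−0.75 and −0.74]). The receptor gene Il7r was at 14.4 and 9.68 CPM and Cd93 at 57 and 50.1 CPM, neither past the limit. Vpreb3 at 239 and 178 CPM, Cplx2 at 307 and 409 CPM and Kit at 0.739 and 0.764 CPM did not pass either. The same held for Crlf2 and Cd34. Flt3, a cytokine receptor gene of early progenitors and dendritic cells, was the higher member, at 2.08 and 1.81 then 4.59 and 4.45 CPM (1.17 [1.11 and 1.25]).

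**Figure D2:**
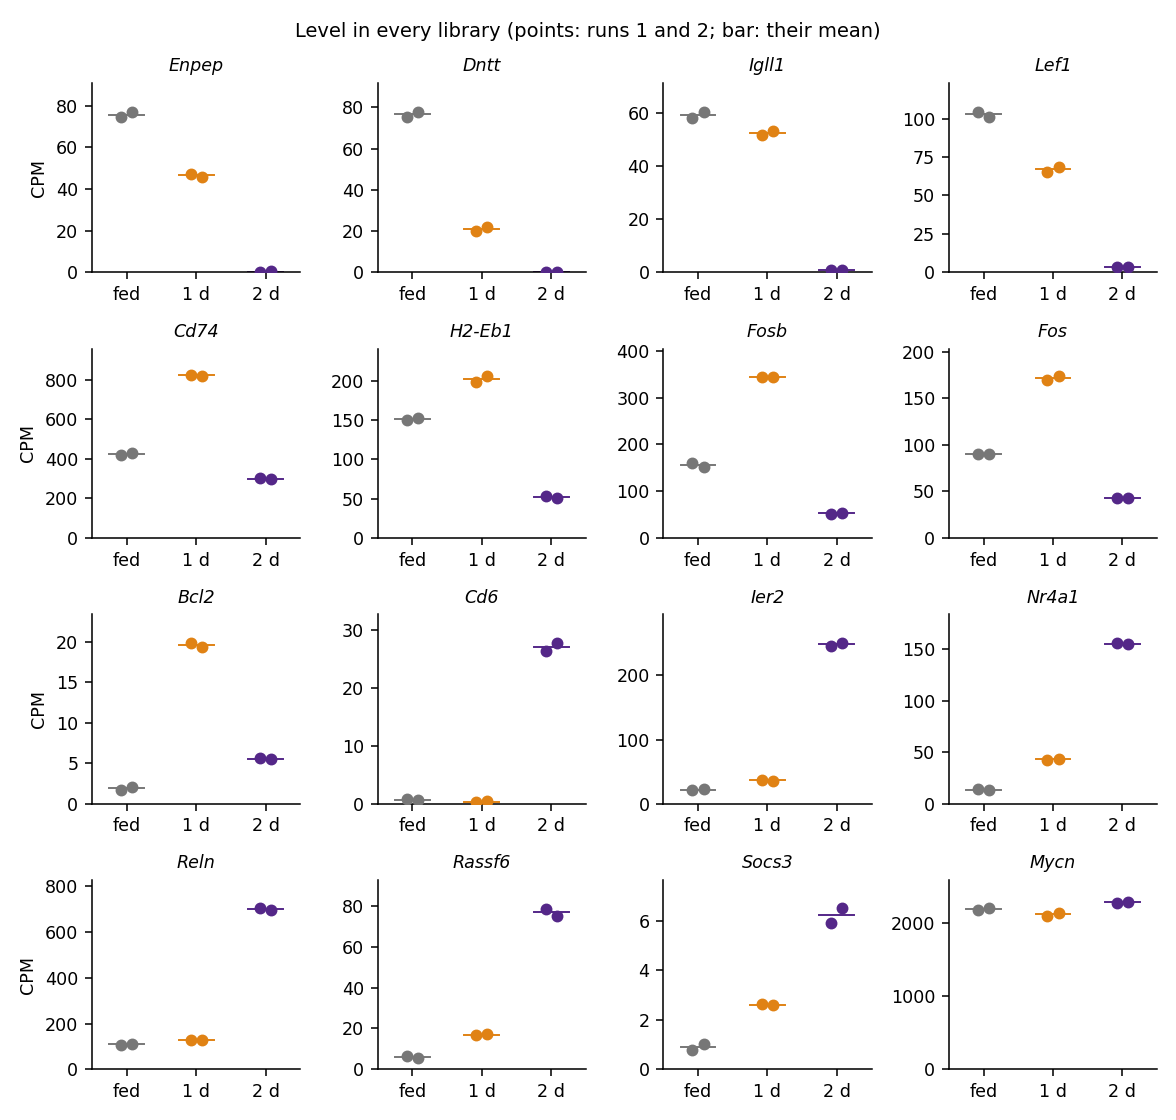
Level in CPM (y axis, from 0) of 16 genes in every library of the fed, 1-day (1 d) and 2-day (2 d) groups; points are runs 1 and 2 and the bar is their mean. The points of a sample lie close together on this linear scale; Enpep, Dntt, Igll1 and Lef1 are near 0 at 2 days, Cd6 is near 0 in the other groups, and Cd74, H2-Eb1, Fosb, Fos and Bcl2 are highest at 1 day.

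Of 25 general B-lineage genes, 3 were lower and 1 higher (median −0.17), which is near the 8.29% and 5.66% of all genes. The lower ones were the inhibitory coreceptor gene Cd72, at 130.0 and 127 then 44 and 41.6 CPM (−1.58 [−1.56 and −1.60]), the transcription repressor gene Bach2, at 163 and 164 then 56.6 and 59.6 CPM (−1.49 [−1.53 and −1.46]), and the E-protein gene Tcf3, at 777 against 473 CPM (−0.72 [−0.71 and −0.73]). The scaffold gene Bank1 was higher, at 65.6 against 127 CPM (0.95 [0.99 and 0.92]). The B-cell master regulator Pax5 was at 109 and 109.6 CPM. Ikzf3 did not pass on gene reads, at 211 against 250 CPM (0.24 [0.26 and 0.22]), but its log2 fold on exon reads was −1.12. Of 17 mature and follicular B-cell genes 3 were higher and 2 lower (median 0.18). The higher ones were the λ constant segment Iglc2, at 8.75 and 8.25 then 19.6 and 19.7 CPM (1.20 [1.16 and 1.25]), the inhibitory Fc receptor gene Fcgr2b (0.89 [0.92 and 0.86]) and the complement regulator Cd55 (0.87 [0.89 and 0.84]). The lower ones were the IgM receptor gene Faim3 (−1.47 [−1.35 and −1.59]) and the follicle-homing receptor gene Cxcr5 (−0.99 [−1.03 and −0.94]). Ms4a1, the CD20 gene, was at 66.1 and 63.7 CPM at 1 day and 106 and 94.8 CPM at 2 days, which missed the limit in run 2.

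Among immunoglobulin constant genes, which no list covers as a group, those higher at 2 days included Igha and Ighg2c, and Ighm was not past the limit. Igha, the IgA constant gene, was at 11.3 and 12.7 then 58 and 59.9 CPM (2.28 [2.35 and 2.23]), with the fed control at 27.5 and 25 CPM. Ighg2c was at 0.317 and 0.272 then 2.53 and 2.38 CPM (2.69 [2.65 and 2.74]) and Igj, the J chain that joins IgM and IgA subunits, at 2.4 and 2.02 then 10.4 and 10.8 CPM (2.22 [2.07 and 2.37]). Ighm was at 1466 and 1480.5 then 1655 and 1639.6 CPM (0.16 [0.17 and 0.15]) and the κ constant gene Igkc at 214 and 254 CPM. Of the other switched constant genes that passed the filter, Ighg1 was at 0.0516 against 1.90 CPM and Ighg2b at 1.24 against 2.59 CPM, the latter short of 2-fold in run 2. Variable and joining segments were called in both directions. Igkv17-121 was at 0.127 against 3.65 CPM, a log2 fold of 4.04, and Ighj1 at 3.19 against 0.215 CPM, a log2 fold of −3.39. These segments, Igha, Ighg1, Ighg2b, Ighg2c, Ighm and Igkc were chosen after their values were seen. Of 13 plasma cell genes 4 were higher and 3 lower (median −0.20): Igj, the ectoenzyme gene Cd38 (1.48 [1.41 and 1.56]), and the endoplasmic reticulum genes Txndc5 (0.83 [0.84 and 0.82]) and Fkbp11 (0.64 [0.66 and 0.61]) were higher, and the surface receptor gene Slamf7 (−1.25 [−1.23 and −1.27]), the syndecan gene Sdc1 (−1.11 [−1.19 and −1.03]) and the proline synthesis gene Pycr1 (−0.94 [−0.94 and −0.94]) were lower. At the limit used for lists 5.66% of all genes were higher and 8.29% lower. The plasma cell regulator Prdm1 had 29 reads at 1 day and 16 at 2 days.

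MHC class II genes were lower together after the longer fast. Of 14 genes of class II presentation and costimulation 9 were lower and 0 higher, against 8.29% and 5.66% of all genes, with a median log2 fold of −1.0. Cd74, the invariant chain that guides class II molecules, was at 825 and 821 then 303 and 298 CPM (−1.45 [−1.44 and −1.46]). H2-Eb1, a class II β chain gene, was at 199 and 206 then 53.7 and 51.3 CPM (−1.95 [−1.89 and −2.01]), and the α chain gene H2-Aa at 226 and 229 then 78.9 and 76.7 CPM (−1.55 [−1.52 and −1.58]). H2-Ab1 was at 330.0 against 127 CPM (−1.38 [−1.35 and −1.41]), and the peptide-exchange genes H2-DMb2 and H2-DMa had folds of −1.99 [−2.07 and −1.92] and −1.40 [−1.48 and −1.32]. The fed control means of Cd74, H2-Eb1 and H2-Aa, at 426, 151 and 162 CPM, lay between the 1-day and the 2-day means.

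Ciita, the class II transactivator, was at 45.9 and 21.3 then 24.8 and 7.52 CPM (−1.05 [−0.88 and −1.49]). Its run 1 level was over 2 times its run 2 level in every group, so the bracketed folds of like-numbered runs are the ones to read. H2-Ob and H2-Oa, whose products restrain peptide exchange, were lower at −0.95 [−0.89 and −1.02] and −0.88 [−0.82 and −0.94]. Among the 5 members that did not pass were H2-DMb1, Cd80 and Cd83. Of the others, the protease gene Ctss, which trims the invariant chain, was at 96 and 126 CPM and the costimulatory ligand gene Cd86 at 13.8 and 17.8 CPM, not past the 1.5-fold limit. Monocytes and dendritic cells also express class II genes. Of their 16 list members 6 were higher and 1 lower at 2 days, beside 5.66% and 8.29% of all genes. The summed level of that list was 301 and 302 CPM at 1 day and 415 and 405 CPM at 2 days, with Ctss, shared with the class II list, as its most abundant member. The part of these cells in the class II levels was not tested.

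The proximal promoters of H2-Aa and H2-Eb1 are shown because these genes of 1 complex were lower together. Both hold the Y box, searched as ATTGG on either strand (capitals), which is present in 33.8% of 32536 mouse promoter windows of the same 250 bases before the start. The stretches are from RefSeq, build GRCm38, read 5′ to 3′ on the gene's strand up to the base before its start: chr17:34287824-34288073 on the minus strand for H2-Aa and chr17:34305617-34305866 on the plus strand for H2-Eb1.
H2-Aa: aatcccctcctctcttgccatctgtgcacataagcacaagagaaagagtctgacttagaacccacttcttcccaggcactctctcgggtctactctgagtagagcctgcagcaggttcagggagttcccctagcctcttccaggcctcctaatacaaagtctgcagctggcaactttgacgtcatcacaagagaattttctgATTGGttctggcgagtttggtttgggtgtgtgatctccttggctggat
H2-Eb1: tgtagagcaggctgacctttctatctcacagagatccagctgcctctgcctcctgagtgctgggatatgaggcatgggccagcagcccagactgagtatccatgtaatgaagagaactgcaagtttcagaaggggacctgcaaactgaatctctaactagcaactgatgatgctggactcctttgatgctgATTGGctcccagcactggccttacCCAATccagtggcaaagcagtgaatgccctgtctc
H2-Aa holds 1 match, 48 to 44 bases before the start, and H2-Eb1 holds 2, at 59 to 55 and, on the opposite strand, at 35 to 31 bases. A match is a description of these letters and was not tested as a binding site.

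Immediate early genes split into opposite directions. Of 29 members 13 were lower and 6 higher, where 8.29% and 5.66% of all genes were, and the median log2 fold was −0.32. Fosb and Fos, subunits of the AP-1 transcription factor, were at 345 and 344 then 52.1 and 52.8 CPM (−2.71 [−2.72 and −2.70]) and at 170.1 and 174 then 43.4 and 42.8 CPM (−2.0 [−1.97 and −2.02]). Their 2-day levels were also under those of the fed control, 161 and 152 CPM for Fosb and 90.2 and 90.6 CPM for Fos. The zinc-finger genes Klf4 (−2.40 [−2.56 and −2.25]) and Klf6 (−1.63 [−1.60 and −1.67]), the small GTPase gene Rhob (−2.14 [−2.16 and −2.13]), the phosphatase gene Dusp6 (−1.86 [−1.69 and −2.05]) and the stress-response gene Atf3 (−1.74 [−1.67 and −1.81]) were lower as well. Jun (−0.88 [−1.05 and −0.73]), Jund (−0.60 [−0.59 and −0.61]) and Egr1 (−1.24 [−1.21 and −1.27]) were also lower, as were Nr4a3 (−0.82 [−0.94 and −0.70]), Csrnp1 (−0.91 [−0.62 and −1.20]) and Dusp1 (−0.71 [−0.73 and −0.68]). Nr4a3 was at 0.433 against 0.201 CPM.

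In the same libraries other members were far higher. Ier2 was at 37.5 and 35.6 then 246 and 251 CPM (2.76 [2.71 and 2.81]), against 20.8 and 22.8 CPM in the fed control. Fosl2, the AP-1 subunit Fra-2, was at 15 and 15 then 62.3 and 62.6 CPM (2.06 [2.05 and 2.06]), and the orphan nuclear receptor gene Nr4a1 at 42.4 and 43.8 then 156 and 154 CPM (1.85 [1.88 and 1.82]). In these 3 genes the fed level was the lowest and the 2-day level the highest in both runs. Smaller positive folds were those of Gadd45b (0.69 [0.72 and 0.66]), Maff (0.70 [0.76 and 0.65]) and Egr3 (0.69 [0.62 and 0.76]), the last at 0.277 and 0.509 CPM. Junb, Nr4a2, Btg2, Dusp5, Zfp36 and Ppp1r15a did not pass. Of the reads of Nr4a1, 65.9% were exonic at 1 day and 51.2% at 2 days, and its log2 fold was 1.48 on exon and 2.55 on intron reads. The time between death, sorting and lysis is not given in the labels, and its part in these levels was not tested.

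**Figure D3:**
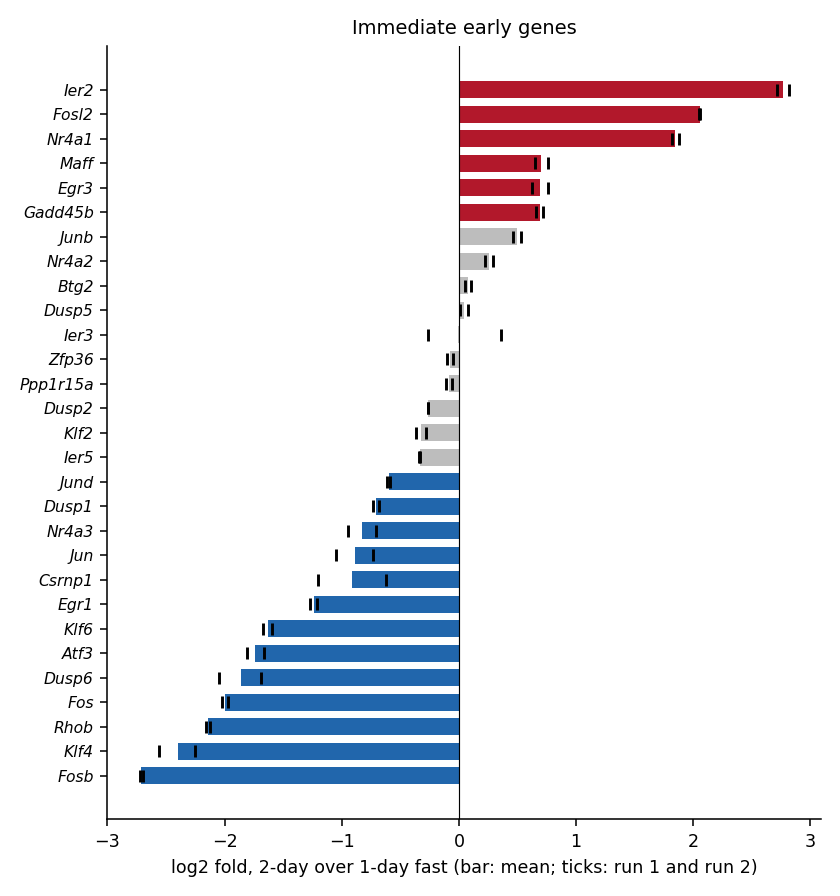
Log2 fold of the 2-day over the 1-day level (x axis) for 29 immediate early genes, ordered by size; bars show the fold of the means and ticks the folds of run 1 and run 2. Red bars are the 6 members called higher, blue bars the 13 called lower and grey bars those under 1.5-fold; Ier2, Fosl2 and Nr4a1 stand apart at the top and Fosb, Klf4, Rhob and Fos at the bottom.

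The promoters of 2 lower and 2 higher members are shown to let their sequences be compared. The motif searched was TGACG on either strand, the core of the cAMP response element, which is present in 17.9% of the 32536 windows; capitals mark it. The stretches, from RefSeq in build GRCm38, are chr12:85473640-85473889 on the plus strand (Fos), chr7:19310046-19310295 on the minus strand (Fosb), chr15:101266596-101266845 on the plus strand (Nr4a1) and chr5:32136222-32136471 on the plus strand (Fosl2).
Fos: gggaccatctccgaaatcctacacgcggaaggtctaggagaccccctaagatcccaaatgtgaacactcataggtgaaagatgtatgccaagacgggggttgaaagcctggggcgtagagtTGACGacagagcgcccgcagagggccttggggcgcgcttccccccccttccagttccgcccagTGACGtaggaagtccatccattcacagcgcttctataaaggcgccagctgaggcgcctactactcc
Fosb: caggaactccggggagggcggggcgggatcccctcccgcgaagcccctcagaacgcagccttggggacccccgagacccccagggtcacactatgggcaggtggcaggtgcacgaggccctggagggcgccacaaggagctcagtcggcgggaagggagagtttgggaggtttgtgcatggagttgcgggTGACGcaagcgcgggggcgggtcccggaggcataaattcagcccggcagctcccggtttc
Nr4a1: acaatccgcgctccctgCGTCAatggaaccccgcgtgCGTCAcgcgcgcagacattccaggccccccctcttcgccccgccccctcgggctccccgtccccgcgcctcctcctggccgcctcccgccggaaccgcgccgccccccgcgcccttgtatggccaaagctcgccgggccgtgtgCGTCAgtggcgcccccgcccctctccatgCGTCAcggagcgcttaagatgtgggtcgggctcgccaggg
Fosl2: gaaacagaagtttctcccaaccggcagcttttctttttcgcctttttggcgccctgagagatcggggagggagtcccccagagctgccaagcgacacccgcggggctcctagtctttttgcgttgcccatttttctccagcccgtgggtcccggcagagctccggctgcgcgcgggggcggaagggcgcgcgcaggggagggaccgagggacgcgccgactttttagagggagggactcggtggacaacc
Fos holds 2 matches and Fosb 1, Nr4a1 holds 4, and in the Fosl2 window these letters were not found. A match was not tested as a site.

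The genes highest at 2 days were a varied set. Cd6, a scavenger-receptor-family surface protein of lymphocytes, was at 0.353 and 0.385 then 26.5 and 27.7 CPM, 27 reads at 1 day and 1497 at 2 days (5.86 [5.87 and 5.84]), and at 0.788 and 0.578 CPM in the fed control. Reads lay in exons for 92.6% at 1 day and 96.6% at 2 days. Reln, which encodes the secreted glycoprotein reelin, had the highest level among them, 129 and 126 then 705 and 697 CPM (2.46 [2.45 and 2.46]). Chrna9, a nicotinic acetylcholine receptor subunit gene, was at 1.55 and 2.08 then 19.8 and 18.8 CPM (3.34 [3.59 and 3.11]). The Ras-association gene Rassf6 was at 16.6 and 17.1 then 78.8 and 75.1 CPM (2.19 [2.24 and 2.13]) and the sialic acid hydroxylase gene Cmah at 11.6 and 14.2 then 55.1 and 53.9 CPM (2.07 [2.23 and 1.92]). That the libraries of the groups are apart in these genes follows from the rule that chose them.

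Ier2, described above, and Igj also belong to the 15 higher genes named by size, and the others were these. The Wnt receptor gene Fzd7 was at 2.24 against 14.4 CPM (2.64 [2.54 and 2.73]), the basement membrane gene Nid2 at 3.95 against 24.2 CPM (2.59 [2.73 and 2.45]) and the calcium release channel gene Ryr2 at 5.77 against 26.5 CPM (2.18 [2.30 and 2.07]). Wfikkn2 (3.21 [2.93 and 3.56]), the keratin gene Krt80 (2.60 [2.46 and 2.75]), the sialomucin gene Podxl (2.57 [2.15 and 3.16]), Rasgef1a (2.53 [2.48 and 2.60]) and the sphingomyelinase gene Smpd3 (2.11 [1.64 and 2.71]) reached 5.12 to 7.09 CPM at 2 days. Without 1-day run 1 the log2 fold of Podxl was 3.16, and on intron reads alone it was −0.37. The highest fold of any gene was that of a provisional gene model, named here after its value was seen: BC061194 on chromosome 2 (18699023 to 18750413) had 3 reads at 1 day and 5531 at 2 days, a ratio of 2400.5 (counting interval 821 to 11644). Its neighbour Gm13334 (18694032 to 18699037), which overlaps its first bases, had 3 and 508 reads, a ratio of 220.5 (75 to 1073). Of the BC061194 reads at 2 days 27.1% were exonic.

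Transcripts of T-cell receptor signalling were mostly lower, many of them from low levels. Of 18 members 12 were lower and 1, Cd6, higher (median −1.22), against 8.29% and 5.66% of all genes. The adaptor gene Lat was at 5.01 and 4.46 then 0.816 and 0.794 CPM (−2.42 [−2.48 and −2.35]), the signalling chain gene Cd247 at 29 and 29.5 then 7.53 and 8.94 CPM (−1.82 [−1.93 and −1.71]) and the kinase gene Zap70 at 17.1 against 6.76 CPM (−1.32 [−1.34 and −1.31]). The T-cell factor gene Tcf7, a relative of Lef1, was at 2.8 against 1.0 CPM (−1.39 [−1.25 and −1.51]), and Thy1 at 7.55 against 2.31 CPM (−1.67 [−1.74 and −1.60]). Cd3e, Cd3d, Cd3g and Cd8a were under 1 CPM in both groups. With 1 CPM added in place of 0.1, 5 of the 18 members were lower. NK-cell and cytotoxic genes were lower in 9 of 13 and higher in 0 (median −1.28), at summed levels of 12.1 and 11.4 CPM at 1 day and 5.03 and 5.35 CPM at 2 days, and with 1 CPM added 1 of them was lower. In bulk samples fewer cells of a type and less RNA per cell cannot be told apart.

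Genes of stem and myeloid progenitors were lower in 7 of 15 and higher in 0 (median −0.58), against 8.29% and 5.66% of all genes. Lmo2, a transcription cofactor gene of blood stem cells, was at 265 and 265 then 12.7 and 11 CPM (−4.47 [−4.37 and −4.58]), and at 77.7 and 79.7 CPM in the fed control. Exons held 27.7% of its reads at 1 day and 79.4% at 2 days, and its log2 fold was −2.96 on exon and −6.12 on intron reads. Sox4, Myb and Egr1, already described, are shared with other lists, and the remaining lower members Gfi1b, Gata2 and Meis1 were at 1.17, 1.39 and 0.34 CPM at 1 day and 0.268, 0.588 and 0.0944 CPM at 2 days.

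Some markers of granulocytes, monocytes and red cells were higher at 2 days. Of all genes 5.66% were higher and 8.29% lower at the 1.5-fold limit. Neutrophil granule genes were higher in 7 of 22 and lower in 0 (median 0.45), with summed levels of 809 and 853 CPM at 1 day, 1178 and 1199 CPM at 2 days and 1219 and 1244 CPM in the fed control. Chi3l3 (1.19 [1.31 and 1.08]), the collagenase gene Mmp8 (1.0 [1.04 and 0.95]) and the calprotectin gene S100a8, at 113 and 114 then 172 and 171 CPM (0.60 [0.61 and 0.59]), were among them. Erythroid genes were higher in 5 of 21 and lower in 0 (median 0.20), the β-globin gene Hbb-bs being at 201 and 200.4 then 410.0 and 399 CPM (1.01 [1.02 and 0.99]). The monocyte and dendritic cell list had its median at 0.54, with the versican gene Vcan (1.33 [1.22 and 1.43]), F13a1 (1.0 [0.95 and 1.05]) and the colony-stimulating factor receptor gene Csf1r (0.88 [0.69 and 1.11]) higher and Siglech (−0.92 [−0.95 and −0.89]) lower. Among stromal and endothelial genes 6 were kept and 2 were higher, the matrix genes Fn1 (1.14 [1.23 and 1.05]) and Sparc (1.19 [1.30 and 1.10]), while Cxcl12, Lepr, Col1a1, Col1a2, Kitl and Cdh5 stayed under 1 CPM in both groups. The calcium-binding genes S100a6 and S100a4 were at 117 and 116 then 239 and 232 CPM (1.01 [1.03 and 0.99]) and 14.5 against 21.7 CPM (0.58 [0.61 and 0.55]). The part of these cells in the differences above was not tested.

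The leptin receptor gene was barely detected. Lepr had 5 reads at 1 day and 2 at 2 days and did not pass the filter, a ratio of 2 days to 1 day of 0.521 (counting interval 0.0496 to 3.18). At the 1.5-fold limit 5.66% of all genes were higher and 8.29% lower. Of 17 measured genes of leptin and JAK-STAT feedback, 2 were higher and 0 lower (median 0.04). Both are suppressors of cytokine signalling: Socs3 was at 2.65 and 2.58 then 5.93 and 6.51 CPM (1.22 [1.13 and 1.30]) and Socs2 at 12 and 11 then 26 and 23.2 CPM (1.09 [1.10 and 1.07]). Stat3 was at 54.2 and 50.8 then 79.5 and 74.6 CPM (0.55 [0.55 and 0.55]), under the limit.

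Among nutrient and growth lists the counts are to be read against 8.29% lower and 5.66% higher of all genes. In the list of tricarboxylic acid cycle and respiratory chain genes 0 of 54 members passed 1.5-fold in either direction (1 lower without 1-day run 1 or without 2-day run 1), and in that of MYC targets and ribosome biogenesis 0 of 57. Of 38 insulin, IGF and mTOR genes 5 were lower and 2 higher (median −0.08): Rragd, a RAG GTPase of the amino acid branch of mTORC1, was at 23.5 and 22.6 then 2.2 and 2.12 CPM (−3.35 [−3.36 and −3.35]), the phosphoinositide kinase gene Pik3cg at 50.2 against 20.4 CPM (−1.29 [−1.24 and −1.35]) and the adaptor gene Irs2 at 7.86 against 3.87 CPM (−1.0 [−1.02 and −0.99]). The IGF1 receptor gene Igf1r (−0.61 [−0.63 and −0.59]) was lower and Gatsl3 (1.11 [1.40 and 0.84]) was higher, the latter at 0.293 against 0.752 CPM. Prkaa2, an AMP-activated kinase subunit gene, was higher at 0.388 against 2.09 CPM (2.17 [2.06 and 2.30]). Of 32 ATF4 amino acid response genes 3 were lower and 1 higher, asparagine synthetase Asns being at 23.6 against 8.52 CPM (−1.46 [−1.46 and −1.46]) and Stc2 at 6.51 against 1.02 CPM (−2.57 [−2.91 and −2.27]); without 1-day run 2 the counts were 5 and 2. Pycr1 was the other lower member and Cebpb (0.86 [0.83 and 0.89]) the higher one. Of 34 cholesterol and fatty acid synthesis genes 2 were higher and 1 lower, with 2 lower when any 1 of the 4 libraries was left out. The desaturase gene Scd1 was at 124 against 289 CPM (1.22 [1.22 and 1.21]) and the carboxylase gene Acacb at 14.6 against 32.3 CPM (1.15 [1.16 and 1.13]), while the desaturase gene Fads2 (−1.28 [−1.24 and −1.33]) was lower.

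The cell cycle lists had medians slightly under 0, −0.19 for G1/S and replication genes and −0.12 for G2/M genes. The summed level of the G1/S list was 8521 and 8517 CPM at 1 day and 7454 and 7366 CPM at 2 days. At 1.5-fold 2 of 43 G1/S genes and 1 of 42 G2/M genes were lower and 0 higher, where 8.29% and 5.66% of all genes were; the thymidine kinase gene Tk1 was at 79 against 36.9 CPM (−1.10 [−1.07 and −1.12]), the replication helicase gene Gins2 had a fold of −0.76 [−0.65 and −0.86] and the phosphatase gene Cdc25b at 249.9 against 126 CPM (−0.99 [−0.96 and −1.02]). Mki67, the proliferation marker, was at 924 and 926 then 847 and 832 CPM (−0.14 [−0.13 and −0.15]). Of 23 cell cycle inhibitors and D cyclins 7 were lower and 0 higher (median −0.26). Cdkn2a, the Ink4a/Arf gene, was at 11.1 and 12.1 then 1.98 and 2.33 CPM (−2.37 [−2.43 and −2.32]), the p21 gene Cdkn1a at 7.9 against 3.68 CPM (−1.08 [−1.24 and −0.94]) and the cyclin gene Ccnd3 at 147 against 91.8 CPM (−0.68 [−0.66 and −0.70]). Klf4, also an immediate early gene, Ccnd2 (−1.15 [−1.07 and −1.25]), Cdk6 (−0.70 [−0.72 and −0.68]) and Cdkn2b (−0.93 [−0.89 and −0.97]) were the others, while Ccnd1 was at 263 and 341 CPM. Cdkn2b was at 0.398 against 0.161 CPM.

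Single survival and stress genes differed between the samples. Bcl2, the anti-apoptotic founder of its family, was at 19.9 and 19.4 then 5.63 and 5.5 CPM (−1.80 [−1.80 and −1.80]), against 1.66 and 2.09 CPM in the fed control, so the 2-day level lay between the other groups. The pro-apoptotic Bok was at 9.56 and 10.5 then 1.03 and 0.847 CPM (−3.29 [−3.09 and −3.49]) and the pro-apoptotic Bmf at 13.1 against 21.6 CPM (0.71 [0.65 and 0.76]). Of 23 genes of that list 2 were lower and 1 higher, or 2 higher without 1-day run 1 or without 2-day run 1, near the 8.29% and 5.66% of all genes. The inducible chaperone genes Hspa1b and Hspa1a were at 38.5 and 39.7 then 4.0 and 3.6 CPM (−3.33 [−3.24 and −3.43]) and 4.62 and 4.87 then 0.408 and 0 CPM (−4.0 [−3.22 and −5.64]); they are near-identical copies, and reads may be shared between them. Of 35 heat shock and endoplasmic reticulum stress genes 5 were lower and 0 higher, the others being the small heat shock gene Hspb1 (−1.34 [−0.76 and −1.93]), Derl3 (−0.93 [−0.95 and −0.90]) of protein degradation and the chaperone BiP gene Hspa5 (−0.66 [−0.65 and −0.67]). The clock gene Arntl was at 49.8 and 48.3 then 15.7 and 14.2 CPM (−1.71 [−1.66 and −1.76]), its list having 2 of 15 lower, with Per3 (−0.83 [−0.91 and −0.75]), and 1 higher, Cry1 (0.64 [0.64 and 0.64]), and the hour of sampling is not stated in the labels. The glucocorticoid-induced gene Tsc22d3 was at 196 and 197 then 211 and 207 CPM (0.09 [0.11 and 0.07]).

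Up to 5 members of a list were named by rule, and further members were chosen after their values were seen. Across all 35 lists, 856 distinct genes were measured, of which 116 were lower and 54 higher, beside 1154 lower (8.29%) and 788 higher (5.66%) of all 13923 genes. Among the remaining lists, those of type I interferon and p53 target genes held several lower and 0 higher members. The others held members in both directions or few in either. Counts of 0 higher became 1 without 1-day run 1 in the p53, NK-cell and stem progenitor lists, without 2-day run 1 in the p53 list, without 1-day run 2 or without 2-day run 2 in the hypoxia list, and without 1-day run 2 or either 2-day run in the interferon list. The count of 0 lower erythroid genes became 1 without 2-day run 1. Of 38 type I interferon genes 5 were lower and 0 higher, the antiviral gene Oas1a being at 8.82 and 8.74 then 0.897 and 0.741 CPM (−3.27 [−3.16 and −3.39]); Ifi27 (−0.95 [−0.89 and −1.01]), Oasl1 (−1.83 [−1.42 and −2.41]), Rtp4 (−0.70 [−0.69 and −0.71]) and Dhx58 (−0.77 [−0.83 and −0.70]) were the others. Of 24 homing and adhesion genes 4 were lower and 3 higher, with the ephrin receptor gene Epha2 at 12.3 against 0.981 CPM (−3.52 [−3.29 and −3.80]) and the integrin gene Itgb7 at 65.7 against 147 CPM (1.16 [1.16 and 1.15]). The chemokine receptor gene Ccr9 (0.74 [0.76 and 0.73]) and the sphingosine phosphate receptor gene S1pr2 (1.21 [1.26 and 1.16]) were higher too, and Dsg2, Cxcr5 and the integrin gene Itga5 (−0.70 [−0.63 and −0.78]) lower.

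The counts that follow are to be read against 8.29% lower and 5.66% higher of all genes. Of 26 p53 target genes 4 were lower and 0 higher: Cdkn1a, Zmat3 (−0.67 [−0.62 and −0.72]), Phlda3 (−2.46 [−1.90 and −3.41]) and Perp (−1.10 [−1.12 and −1.10]). Perp was at 0.604 against 0.227 CPM. Of 25 hypoxia genes 2 were lower and 0 higher, the prolyl hydroxylase gene Egln3 (−1.48 [−1.32 and −1.66]) and the mitophagy receptor gene Bnip3 (−1.24 [−1.09 and −1.40]). Of 25 NF-kB and inflammatory genes 2 were lower and 2 higher, with 4 lower without 1-day run 1 or without 2-day run 1; the inhibitor gene Tnfaip3 was at 10.3 against 2.62 CPM (−1.93 [−1.84 and −2.05]). The inflammatory caspase gene Casp1 (−1.79 [−1.72 and −1.86]) was lower, and Bcl3 (1.12 [1.15 and 1.11]) and the cytokine gene Il1b (0.91 [1.19 and 0.59]) higher. Of 23 glucocorticoid response genes 3 were higher, Bmf, the corepressor gene Tle1 (1.24 [1.22 and 1.27]) and Fkbp5 (0.63 [0.60 and 0.65]), and 3 lower, Dusp1, Rgs2 (−0.91 [−0.90 and −0.92]) and Errfi1 (−0.96 [−1.31 and −0.62]). Of 55 autophagy and lysosome genes 2 were higher, the lysosomal enzyme genes Ctsh (0.89 [0.90 and 0.89]) and Hexa (0.82 [0.83 and 0.80]), and 2 lower, Bnip3 and Gabarapl1 (−1.27 [−1.26 and −1.29]), with 4 higher without 1-day run 2. Of 27 glycolysis genes 2 were lower, Aldoc (−0.98 [−1.18 and −0.69]) and Eno2 (−0.87 [−1.09 and −0.68]), or 1 without 1-day run 1, and of 30 fatty acid oxidation genes 1, Ppargc1a (−1.39 [−1.26 and −1.60]), was lower. Levels were low in Aldoc, at 0.946 against 0.430 CPM, and in Ppargc1a, at 0.446 against 0.108 CPM.

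**Figure D4:**
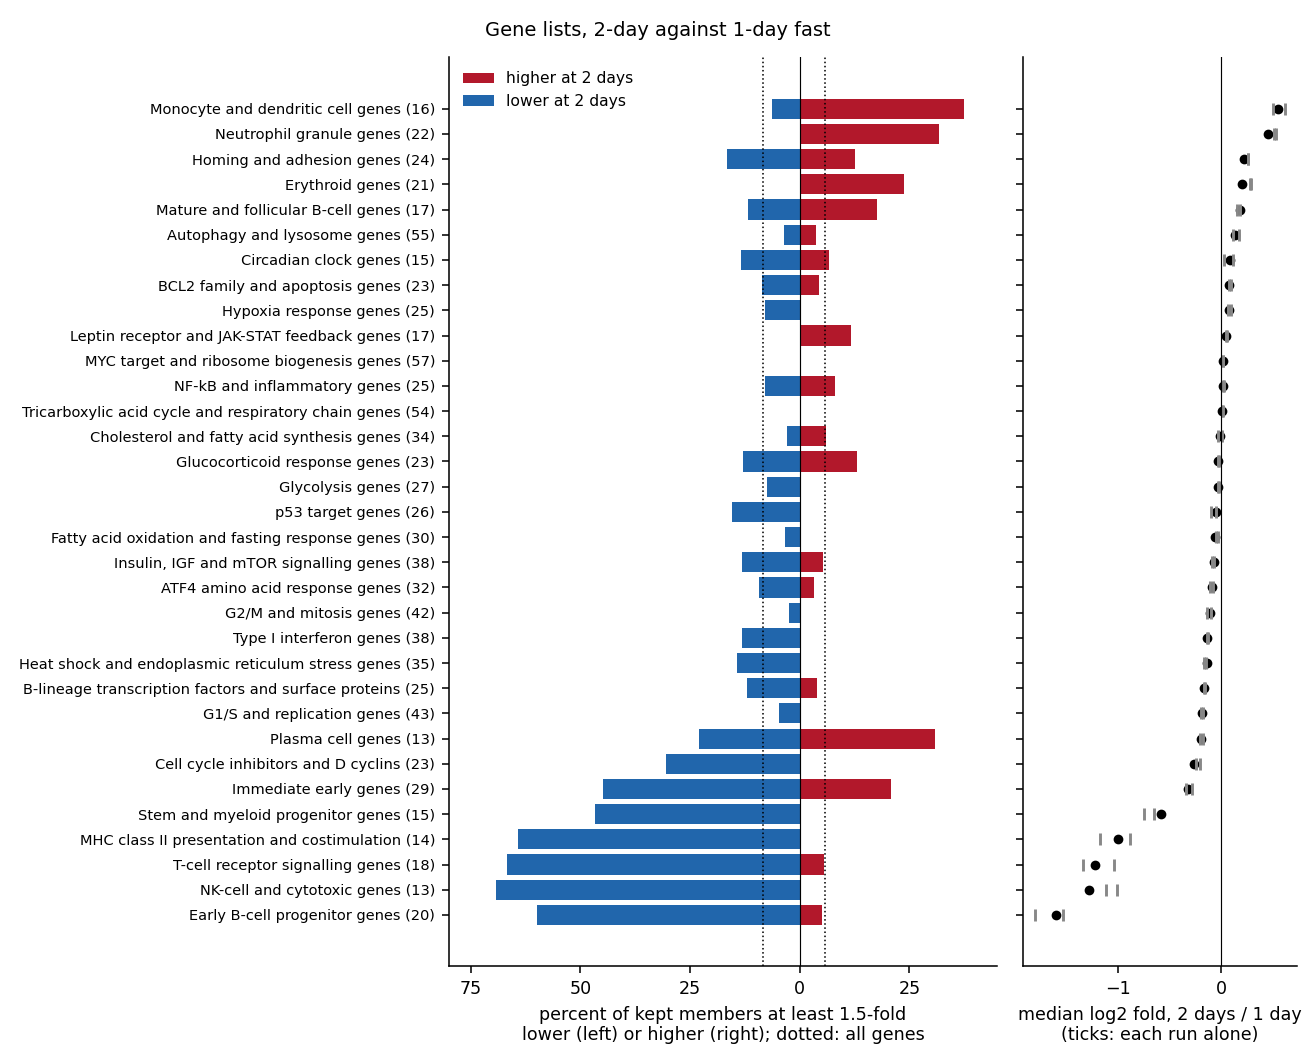
Left, percent of the kept members of each gene list (number kept in brackets; lists with at least 10 members) that were at least 1.5-fold lower (blue, left of 0) or higher (red, right of 0) at 2 days; dotted lines mark the 8.29% and 5.66% of all genes. Right, median log2 fold of each list (point) and of run 1 and run 2 alone (ticks); early B-cell progenitor, NK-cell, T-cell receptor and MHC class II genes have the lowest medians.

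Most of the differences seen on exon reads had the same direction on intron reads. On exon reads alone 243 genes were higher (1.96%) and 617 lower (4.98%), and on intron reads alone 242 (2.16%) and 287 (2.56%). On uniquely mapped gene reads 243 genes were higher (1.89%) and 614 lower (4.79%). Of 326 genes lower on exon reads with enough intron reads to be measured, 187 were also lower on intron reads, where 2.54% of the 9997 genes measured in both classes were. Of 132 such genes higher on exon reads, 74 were also higher on intron reads, where 1.65% were. The share of gene reads in introns was 11.7% and 11.4% in the 1-day libraries and 11.2% and 10.7% in the 2-day libraries.

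In 23 lower and 36 higher genes the fold on exon reads was under 1.5. These counts include genes with few or 0 exon reads. The 0.1 CPM added holds their exon fold near 0, so a difference in exons could not be seen in them. Mtmr7, a phosphatase gene on chromosome 8 (40551095 to 40634797), was at 83.1 and 80.3 then 5.65 and 6.14 CPM (−3.77 [−3.85 and −3.69]), but 0.39% of its reads were exonic at 1 day and its log2 fold on exon reads was −0.36. Ctse, a cathepsin gene, was at 334 against 146 CPM (−1.19 [−1.13 and −1.24]), with −0.38 on exon reads. Tex21 was at 13.1 and 15.7 then 37.1 and 36.9 CPM (1.36 [1.5 and 1.23]) with 0 exon reads, and Kbtbd12 at 10.4 against 28 CPM (1.41 [1.33 and 1.52]). Rpph1, the RNA of RNase P, was lower (−2.25 [−2.45 and −2.08]) with no read assigned to an exon, and Slco1a6 was lower on gene reads (−1.44 [−1.5 and −1.33]) and at 0.20 on exon reads. Without 1-day run 1 the gene-read fold of Slco1a6 was −0.82. That value sets 1-day run 2 against both 2-day runs, whose gene tables differ, so the bracketed folds are the ones to read. Myo3a, named after its values were seen and with 0% of its reads in exons, was at 3066 and 325 then 6824 and 679 CPM (1.15 [1.15 and 1.06]); its level was far lower in the run 2 tables than in the run 1 tables of every group, so the bracketed folds are again the ones to read. The strand setting of the counting is not known here, so reads of unannotated or overlapping transcripts and intron reads cannot be told apart.

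**Figure D5:**
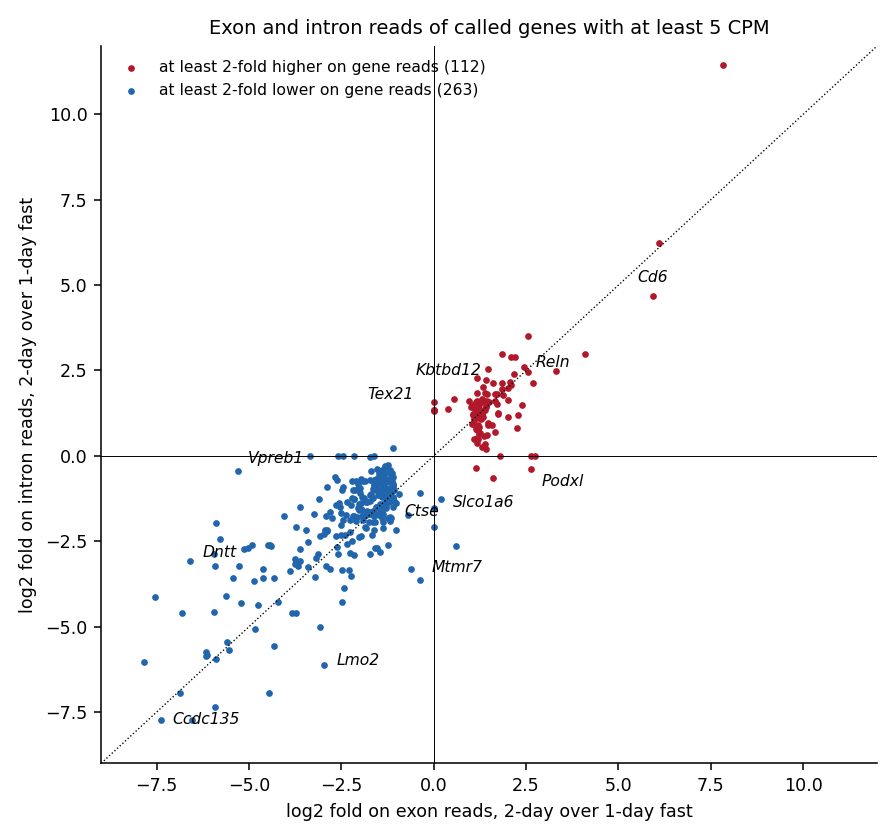
Log2 fold on exon reads (x axis) against that on intron reads (y axis), 2-day over 1-day, for the genes with at least 5 CPM called higher (red, 112) or lower (blue, 263) on all gene reads; the dotted line marks equal folds. Most points lie at the lower left or upper right; Mtmr7, Ctse, Slco1a6 and Tex21 lie near 0 on the exon axis, and genes with no intron reads lie at 0 on the intron axis.

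A lower gene was followed by another lower gene more often than genes in general were. Among 12048 pairs of measured genes that follow each other without overlap, the next gene was lower in 86 of 595 pairs whose first gene was lower (14.5%), where 5.0% of all next genes were. For higher genes this was 26 of 250 (10.4%) against 2.06%. Within 100 kb the shares were 16% (59 of 368) against 4.18%, and 13.1% (23 of 176) against 2.01%. The pairs include entries of a single gene, Pde4d_1 and Pde4d_2, 647 bases apart. They also include near-identical copies such as Hspa1b and Hspa1a, between which reads may be shared. Among the higher pairs are members of shared gene families, such as Tlr1 and Tlr6 or Fpr1 and Fpr2, and immunoglobulin segments, such as Ighv2-2 and Ighv2-3. Such pairs were not left out of the shares. Igll1 and Vpreb1 on chromosome 16 lie 4416 bases apart, and H2-Ab1 and H2-Aa on chromosome 17 lie 13325 bases apart. On chromosome 17 the neighbours Tmprss3, at 22.2 and 22.1 then 0.816 and 0.953 CPM (−4.50 [−4.60 and −4.40]), and Ubash3a, at 25.8 and 26.6 then 0.598 and 0.741 CPM (−5.09 [−5.21 and −4.99]), lie 8897 bases apart. On chromosome X, Armcx1, Armcx2, Armcx3 and Armcx6 of the family of Armcx4 were lower too, at log2 folds of −3.18 [−3.30 and −3.04], −2.56 [−2.67 and −2.46], −2.91 [−2.80 and −3.06] and −1.92 [−1.71 and −2.07]. Armcx1 was at 0.803 against 0 CPM and Armcx6 at 0.431 against 0.0401 CPM, so the 0.1 CPM added limits their folds. These neighbours were picked after their values were seen, and shared control of neighbouring genes was not tested.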

How the data were processed

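RNA of sorted leukaemia cells was sequenced in 6 libraries, and the 4 of the fasted groups were compared. The authors deposited raw read counts per gene model, split into gene, exon and intron reads, and RPKM values, per the file headers. Per the submitters' processing notes, TopHat2 and build mm10 were used. Which program, annotation and strand setting produced the counts is not given in the sources used here. The run 1 and run 2 tables list 38355 and 38924 genes, and 37732 were joined, 37429 by position and 303 by name and chromosome.

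Total gene reads were scaled with TMM factors (edgeR 4.0.16, R 4.3.3), and filterByExpr with a minimum count of 10 kept 13923 genes. Further steps used Python 3.11.15, numpy 2.4.6, pandas 2.3.3, scipy 1.17.1 and matplotlib 3.10.9. The series describes 3 samples sequenced in duplicate, so each group has 1 sample; no test across genes was run and no p-value is given. Steps were tested on simulated data. Ratios of 1 to 3 reads have 95% counting intervals, and these and the floor of 3 reads cover counting error only.

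In each direction the 15 genes with the largest fold were named among those 2-fold apart on gene and exon reads with at least 5 CPM, leaving out provisional models and receptor segments. Named too were the 6 largest differences with a fold under 1.5 on exon reads. Up to 5 members of each list with at least 1 CPM and a fixed set of marker genes were also named. Members and lists were chosen with earlier results of these data known. Alternatives were DESeq2 1.42.0 size factors, 1 CPM as pseudocount, other read classes, the deposited RPKM, other filters and leaving out runs. Promoter sequences are from RefSeq, build GRCm38.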

Additional observations from a re-analysis of the deposited data

Results flagged for a closer look

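Mitochondrially encoded transcripts are listed in the run 2 tables and not in the run 1 tables, and no comparison above uses them. They made up 4.30% of gene reads in 2-day run 2, 2.46% in 1-day run 2 and 3.08% in the fed control run 2. These transcripts were singled out because they had been left unanalysed. All 13 protein-coding mitochondrial genes were higher at 2 days than at 1 day in these libraries, with a median log2 ratio of 1.01 and a range from 0.17 to 1.68. Each share comes from 1 library, and the difference was not tested.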

How the results depend on the processing

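The counts of 276 higher and 638 lower genes were 277 and 635 with DESeq2 size factors, 236 and 488 on the deposited RPKM, 318 and 762 with no filter, and 273 and 636 with genes joined by position alone. They were 116 and 349 with 1 CPM as pseudocount, 112 and 263 with at least 5 CPM in the higher group, and 788 and 1154 at 1.5-fold. On intron reads 287 genes were lower. Leaving out runs gave 359 to 661 higher and 718 to 897 lower genes; with 1 run a group, fewer folds must pass. The share of gene reads in introns was 8.15% at 1 day and 7.16% at 2 days on unique reads, against 11.6% and 10.9%. The log2 fold of Slco1a6 reversed to 0.20 on exon reads and that of Podxl to −0.37 on intron reads; the cause was not tested. Of the other folds of named genes under an alternative, 490 moved by less than the difference between runs and 180 by more. No paired analysis was possible because the like-numbered libraries are runs of 1 sample per group and no test was made. Low transcripts, with few or 0 reads at 2 days, have folds limited by depth.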
